A study of Apis mellifera with 6 samples.

Results

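Among the gene models counted in the honeybee hypopharyngeal gland, 36 met a rule for being lower in colonies fed honey alone than in both sets of colonies fed pollen, with similar means whether or not the queens were laying. In 1 of them the rule was met only through counts of 0. They were chosen from the counts themselves. Raw fragments were divided by a size factor per library, the median of ratios over 4633 models with 10 or more fragments in all 6 libraries, and the result is called scaled fragments here. Of 10704 models in each file, 5018 were eligible. They had a gene number as ID, under 10000 raw fragments in every library and a largest group mean of 30 or more scaled fragments. The rule also left out 1 model by its ID. Members were those whose lowest Pollen or Brood library was at least 2 times the highest Honey library and whose Pollen and Brood means lay within 1.5-fold of each other. These 36 are 0.717% of the eligible models, and all of them passed the filter on low counts.

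The hypopharyngeal glands are paired head glands of worker bees, and in nurse bees they secrete the protein part of the food given to larvae and the queen. Pollen is the colony's source of protein, and the glands of nurses are known to develop with pollen feeding and to respond to the presence of brood. The study asked how nutrition and brood act on the gland. The Honey group was fed honey only and its queens were caged, which successively reduced the brood. The Pollen group was fed honey with abundant rape pollen under caged queens. The Brood group was fed honey with abundant rape pollen, and its queens laid without restriction. Each group had 2 colonies of Apis mellifera with 1 RNA library each, so a difference between libraries of a group includes that between colonies. How many glands or bees went into a library is not stated in the labels.

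The series text gives an age of 9 days for all bees. The sample labels instead give day 9 and 10 for Pollen 1 and 2, day 11 and 12 for Honey 1 and 2, and day 13 and 14 for Brood 1 and 2. By those labels the Honey bees, in which the members were lowest, lie between the other groups in age, and within any pair of groups the treatment (diet, brood or both) cannot be told apart from labelled age. Libraries held 2764870 to 4153354 fragments, with size factors from 0.692 in Brood 1 to 2.02 in Honey 1. In bulk RNA, fewer cells of a type and less RNA per cell cannot be told apart. The files do not pair their IDs with names, and 0 of the 10704 IDs matched the reference table. No function is therefore given to any member, and the tissue could not be checked against marker genes. Of the members, 2 are given by ID, and the others that are described singly by linkage group and coordinates as the files list them. No source used here names the genome build.

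One of the 36 met the rule only because 0 is not less than 2 times 0. It spans 4078213 to 4088611 on linkage group 6, and its raw counts were 700 in Pollen 1, 0 in Pollen 2, 0 in both Honey libraries, and 166 and 230 in Brood 1 and 2. The Pollen libraries do not resemble each other. It is left out from here on, which leaves 35 members, except where models that meet the rule under another setting are set against all 36. They are numbered 1 to 35 by their mean over the 4 Pollen and Brood libraries, from the highest down.

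In all 35, the Pollen and Brood libraries lay above both Honey libraries, as the rule demands. All 4 libraries lay above both Honey libraries in 17.1% of the eligible models. Summed over the members, the level was 4944 and 5174 scaled fragments in Honey 1 and 2, 21520 and 19540 in Pollen 1 and 2, and 20990 and 17860 in Brood 1 and 2. The Pollen and Brood sums overlap, and both lie above the Honey sums. Because the member with the most fragments alone held 34.3% to 45.0% of the members' fragments, the sum was also taken without it. It was then 2827 ± 24.4 for Honey, 11800 ± 599 for Pollen and 12770 ± 1457 for Brood (mean ± SD of 2 libraries). As a share of all fragments in a library, the 35 members held 0.224% ± 0.0261 of Honey, 0.523% ± 0.0414 of Pollen and 0.400% ± 0.0287 of Brood libraries (SD over 2 libraries). On that scale the Brood libraries lie between those of the other groups.

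**Figure D1:**
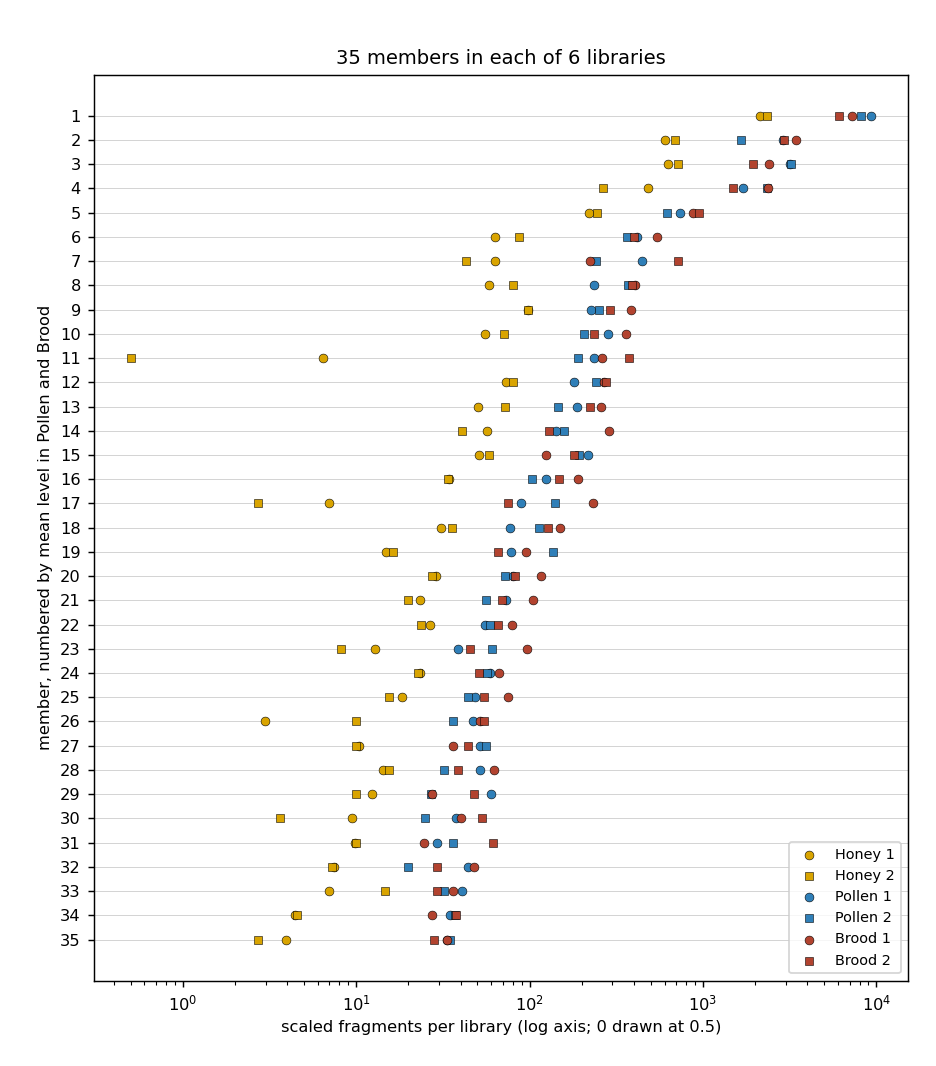
Scaled fragments (x axis, log scale) of each of the 35 members (y axis, numbered from the highest mean level in Pollen and Brood) in the 6 libraries, with 1 point per library, circles for replicate 1 and squares for replicate 2. In every row both Honey points lie left of all Pollen and Brood points, and member 11 has a Honey library at 0.

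Within this pattern the members differed widely in level. There were 4 with a Pollen and Brood mean of 1000 or more scaled fragments, 4 between 300 and 1000, 10 between 100 and 300 and 17 under 100. The median of the eligible models on the same mean was 71.1 scaled fragments, and the members' median percentile among them was 64.15. A gene model's scaled fragments also grow with its length, so levels between members are compared further on by FPKM.

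Member 1, gene4322, had the most scaled fragments. It lies on the plus strand of linkage group 5 at 9396952 to 9512305, and its listed length of 1546 bases is spread over a span of 115354 bases, the widest of the 35. It had 2135 and 2330 scaled fragments in Honey 1 and 2, 9294 and 8164 in Pollen 1 and 2, and 7197 and 6117 in Brood 1 and 2. Both Brood libraries lie below both Pollen libraries and far above Honey. Its mean was 3.91-fold above Honey in Pollen and 2.98-fold above Honey in Brood. Within its span lie a whole model and part of another, both on the opposite strand. These had at most 54 fragments in any library, where the member had at least 2560.

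Member 2, on linkage group 1 at 10793551 to 10794400, is the shortest of the 35 with a listed length of 302 bases. It had 605.8 and 688.9 scaled fragments in Honey, 2881 and 1663 in Pollen, and 3422 and 2926 in Brood. The Pollen libraries were 1.73-fold apart, and both Brood libraries lay above them.

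Member 3, on linkage group 11 at 11166165 to 11178825, went the other way between the pollen-fed groups. It had 625.5 and 719.9 scaled fragments in Honey, 3191 and 3227 in Pollen, and 2416 and 1954 in Brood. Its Brood mean was 0.681 times its Pollen mean, the lowest ratio of any member and near the lower limit of the rule. The last 811 bases of its span overlap a model on the opposite strand at 11178015 to 11191225, which had 2012 and 3182 raw fragments in Pollen, 665 and 303 in Honey, and 852 and 373 in Brood. That model was also higher in Pollen than in Honey (log2 change 3.21, adjusted p = 0.00149, edgeR). No source used here says if the counting was stranded, so fragments of the overlap may have been counted for either.

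Member 4, on linkage group 5 at 2176704 to 2178117, had 480.5 and 266.7 scaled fragments in Honey, 1697 and 2331 in Pollen, and 2380 and 1490 in Brood. Its replicates were further apart than its Pollen and Brood means, which were 2014 ± 448 and 1935 ± 629 (SD, n = 2 each). Among the 4 members with the most scaled fragments, only member 2 had a higher mean in Brood than in Pollen.

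The next 4 members all had a higher mean in Brood than in Pollen. Member 5, on linkage group 2 at 399764 to 406033, had 219.7 and 245.7 scaled fragments in Honey, 736.8 and 617.7 in Pollen, and 871.4 and 942.8 in Brood. Member 6, on linkage group 16 at 598162 to 610067, had 62.9 and 86.5 in Honey, 413.5 and 364.2 in Pollen, and 544.8 and 401.9 in Brood. Member 7, on linkage group 15 at 7875507 to 7878064, had 63.4 and 42.8 in Honey, 445.0 and 242.5 in Pollen, and 222.5 and 713.1 in Brood. For member 5 the Brood libraries lie above the Pollen libraries, for member 6 they overlap, and for member 7 Brood 1 was at 0.312 times Brood 2 and they enclose both Pollen libraries, so its levelness rests on a mean of unlike colonies. Member 8, on linkage group 14 at 7720421 to 7750769, is the longest of the 35 with 4137 bases. It had 58.4 and 80.1 scaled fragments in Honey, 234.1 and 369.2 in Pollen, and 404.6 and 391.3 in Brood. Member 9, on linkage group 9 at 6348585 to 6352889, had nearly equal Honey libraries at 98.0 and 97.4 scaled fragments, with 226.7 and 250.5 in Pollen and 385.8 and 291.1 in Brood. In both, the Brood libraries lie above the Pollen libraries.

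The margin over Honey was largest for member 11, gene8638, on the plus strand of linkage group 11 at 2614875 to 2618809 with a listed length of 1266 bases. It had 13 and 0 raw fragments in Honey 1 and 2, where a count of 0 allows up to 3 fragments, and 224, 191, 181 and 281 in Pollen 1, Pollen 2, Brood 1 and Brood 2. In scaled fragments these were 6.43 and 0 in Honey, 235.1 and 190.6 in Pollen, and 261.6 and 375.2 in Brood. The gene was near the detection limit on honey alone and at a middling level in every pollen-fed library. Its lowest pollen-fed library was 29.6 times its higher Honey library (95% exact binomial interval 16.9 to 56.7, counting error only). Its Brood mean was 1.496 times its Pollen mean, close to the upper limit of the rule, and both Brood libraries lay above both Pollen libraries.

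This model starts 838 bases beyond a very abundant model on the same strand. That neighbour, at 2610927 to 2614036, had 1556 and 362 raw fragments in Honey, 88691 and 86271 in Pollen, and 412262 and 289320 in Brood. It rose from Honey to Pollen (log2 change 7.44, adjusted p = 0.000200, edgeR) and was higher again in Brood than in Pollen (log2 change 2.61, adjusted p = 0.00501, edgeR). The model on the other side, at 2624895 to 2628349, had 3 and 3 raw fragments in Honey, 7 and 7 in Pollen, and 234 and 171 in Brood. It was higher in Brood than in Pollen by 5.44 on the log2 scale (adjusted p = 1.46e-05, edgeR). The member thus lies between a model that was high in Pollen and higher in Brood and one that was low in both caged groups. Whether some of its fragments came from transcripts of the abundant neighbour was not tested.

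Other wide margins were found for members with few fragments. Member 17, on an unplaced scaffold at 34118 to 38366, had 14 and 3 raw fragments in Honey, 85 and 140 in Pollen, and 160 and 56 in Brood, a ratio of lowest to highest of 10.8 (5.93 to 21.0). Member 35, on linkage group 1 at 13930813 to 13941268, had 8 and 3 in Honey, 32 and 35 in Pollen, and 23 and 21 in Brood, with a ratio of 7.08 (3.01 to 18.5). A model added by the authors shares 563 bases with member 35 on the same strand and had 11 and 6 raw fragments in Honey, 24 and 6 in Pollen, and 28 and 32 in Brood, so fragments there may have been divided between them. Member 34, on linkage group 16 at 1151085 to 1154982, had 9 and 5 in Honey, 33 and 37 in Pollen, and 19 and 28 in Brood, with a ratio of 6.03 (2.18 to 20.7). In these 3 the separation from Honey is wide but the ratio itself is known only to within a factor of several, and the Brood libraries of member 17 were 3.09-fold apart.

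The ratio was less extreme in the other members. It was 4.21 for member 6 (3.35 to 5.34) and 3.99 for member 19, on linkage group 7 at 3469961 to 3473127. Member 19 had 30 and 18 raw fragments in Honey, 74 and 136 in Pollen, and 66 and 49 in Brood. A model added by the authors covers its last 1687 bases on the same strand, so fragments there may have been divided between them. That added model had 21 and 0 raw fragments in Honey, 53 and 44 in Pollen, and 20 and 26 in Brood. Next by this ratio were member 26 at 3.59, member 7 at 3.51 and member 27 at 3.48.

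Over the 35 members the ratio of lowest to highest had a median of 2.63. It was 3 or more in 12, 4 or more in 5 and 10 or more in 2. Its counting interval lay above 1 in all 35 but above 2, the limit that chose them, in only 15. Nothing is read from the intervals above 1, since the rule demanded a ratio of at least 2. The interval takes the libraries picked as extremes and leaves out the spread between colonies. The interval lay above 2 for all 8 members with 300 or more scaled fragments, for 4 of the 10 between 100 and 300 and for 3 of the 17 under 100. Such an interval narrows as fragments rise, and the rule used the same libraries. Nothing is therefore read from this order by fragments. Under 30 raw fragments in a Honey library were found for 18 members, and under 10 in some library for 8.

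**Figure D2:**
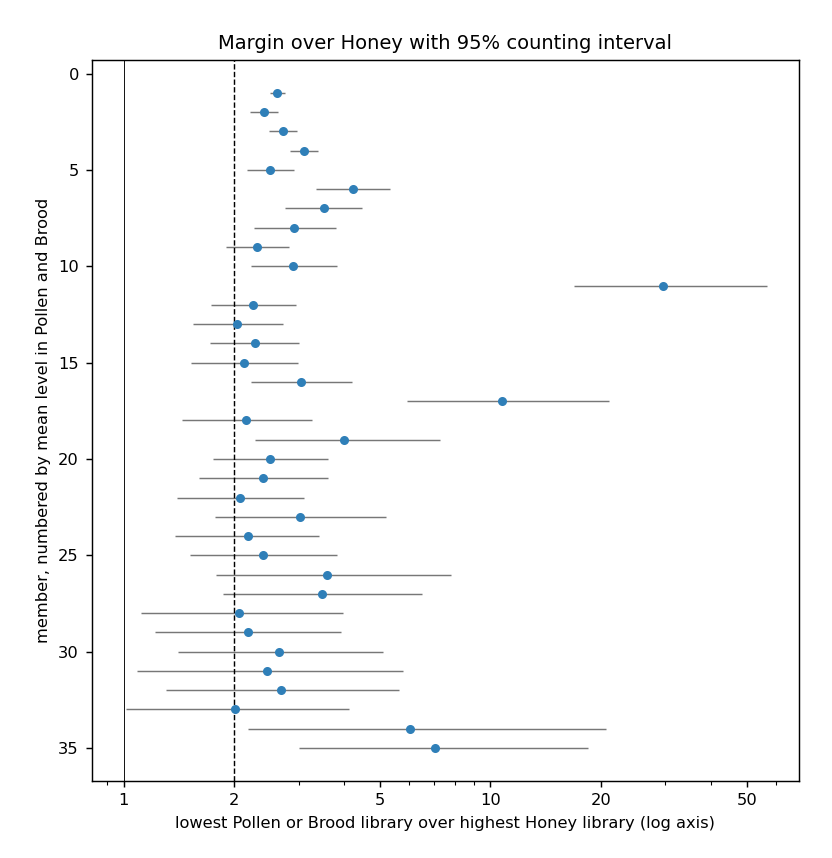
Ratio of the lowest Pollen or Brood library to the highest Honey library (x axis, log scale) for each member (y axis, numbered as before), with the exact binomial 95% interval for counting error as a bar and the limit of 2 as a dashed line. The intervals of 15 members lie right of the dashed line, and member 11 stands farthest out at 29.6.

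Just inside the limit, member 33, on linkage group 4 at 11446716 to 11450957, had a ratio of 2.02. Member 13, on linkage group 3 at 7189579 to 7190646, had 2.04, and member 28, on linkage group 11 at 1798279 to 1799838, had 2.06. Just outside it, with Pollen and Brood also level, the ratios were 1.95, 1.93 and 1.93 for models on linkage groups 10, 4 and 6. The last of these, at 787504 to 788885 on linkage group 6, was abundant, with 2765 scaled fragments in Pollen, 3553 in Brood and 874.5 in Honey on average. The limit is thus not a gap in the data.

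Levelness between Pollen and Brood was likewise a band and not a point. There were 96 eligible models whose lowest pollen-fed library was above 0 and at least 2 times the highest Honey library, and their Brood mean was a median 1.52 times their Pollen mean. Of these 96, 35 fell within 1.5-fold, 50 were higher in Brood and 11 were lower in Brood. Of the 50, 14 were within 2-fold, 22 between 2-fold and 4-fold and 14 beyond. The band takes the part of this spread around equal means, and the median ratio of 1.52 lies just above it. Among the eligible models with level Pollen and Brood means, 1365 in all, 298 had all 4 pollen-fed libraries above both Honey libraries and 294 had all 4 below both. The size factors centre the changes, so nothing is read from that balance. With library totals in edgeR, 136 of all models tested were called higher and 2312 lower in Pollen vs Honey.

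**Figure D3:**
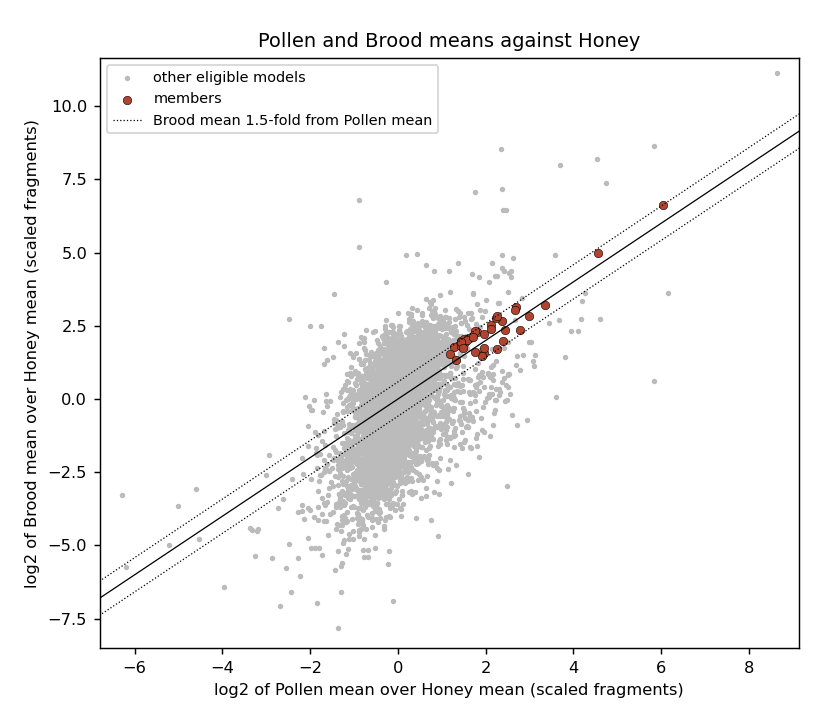
Log2 of the Pollen mean over the Honey mean (x axis) against log2 of the Brood mean over the Honey mean (y axis), in scaled fragments, for 4970 other eligible models with a mean above 0 in each group (grey) and the 35 members (red), with the line of equal means and dotted lines at 1.5-fold. The members lie on the upper right between the dotted lines, with grey points continuing on both sides of the band.

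Within the band, 25 members had a higher mean in Brood and 10 in Pollen, with a median Brood to Pollen ratio of 1.29. Both Brood libraries lay above both Pollen libraries in 14 members (36.1% of the eligible models did so) and below both in 5 (43.8%), and in 16 the groups overlapped. Highest in Brood relative to Pollen were member 30, on linkage group 1 at 7294237 to 7295603, and member 11, both at a ratio of 1.496. They were followed by member 16, on linkage group 5 at 13028839 to 13031020, at 1.48. Lowest were member 3 at 0.681, member 15, on linkage group 1 at 5576646 to 5590223, at 0.741 and member 27, on linkage group 4 at 4858933 to 4871056, at 0.747. Closest to equal was member 24, on linkage group 4 at 5961474 to 5968664. It had 23.3 and 22.8 scaled fragments in Honey, 58.8 and 56.9 in Pollen, and 66.5 and 50.7 in Brood.

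The edgeR quasi-likelihood fit over all 6943 models tested is given beside these values as a description, since the same libraries chose the members. All 35 were called higher in Pollen than in Honey at an adjusted p under 0.05, against 4.32% of all models, and all 35 were called higher in Brood than in Honey, against 28.4% of all models. Nothing is read from these counts. In Pollen vs Honey, 14 of the 35 were called without Honey 1, 17 without Honey 2 and 22 without Pollen 1, and limma on log2(FPKM + 1) called 18. With library totals as the scale, which shifted the median of all models to -0.90 in Pollen vs Honey and -1.30 in Brood vs Honey, 16 and 17 members were called. The numbers called over all models also changed in these alternative fits, as given further on. Nothing is therefore read from the members' counts in them. The median log2 change of the members from Honey was 2.02 to Pollen and 2.32 to Brood, beside -0.01 and 0.05 over all models. With library totals the members' medians were 1.11 and 0.96. These comparisons share the Honey libraries. For Brood vs Pollen, where 22.4% of all models were called higher and 26.0% lower, 0 of the 35 were called by edgeR or by DESeq2, 4 had an unadjusted p under 0.05 in edgeR, and 1 was called in limma on log2(FPKM + 1). The members' median log2 change was 0.52, with -0.40 and 0.73 as the extremes. That no member was called follows in part from the band that chose them and does not show that the groups are equal.

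Both the measure and the common scale of the libraries bear on the word level. The authors' FPKM values, which carry their own scaling and a correction for length, gave a higher median Brood to Pollen ratio, at 1.48. This ratio did not shift alike in all members. It went from 1.32 in scaled fragments to 0.987 by FPKM in member 8, and from 0.681 to 0.688 in member 3. In member 25 it went from 1.41 to 2.79. FPKM and scaled fragments thus differ model by model, and the cause was not tested. By FPKM, 18 of the 35 were within 1.5-fold and 17 were more than 1.5 times higher in Brood. The rise over Honey changed less, since 34 of the 35 kept a lowest pollen-fed library at least 2 times the highest Honey library. The exception was member 25, on linkage group 6 at 16321407 to 16323679, which had 5.15 FPKM in Honey, 10.3 in Pollen and 28.6 in Brood. With library totals in place of size factors, 8 models met the rule, 7 of them among the 36.

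By FPKM, the order of the members changed. FPKM did not simply follow scaled fragments over the listed length. Over Pollen and Brood, member 5 had a mean of 792.2 scaled fragments on 726 bases and 225.9 FPKM. Member 3 had 2697 on 3182 bases and 332.5 FPKM. The cause was not tested, so the order holds for the authors' FPKM only. Member 2 was highest, with 705.2 ± 67.1 FPKM for Honey, 2602 ± 1043 for Pollen and 4335 ± 494 for Brood (SD over 2 libraries). Member 1 was second with 628.7, 2568 and 2233 FPKM in Honey, Pollen and Brood. Member 4 followed with 143.6, 864.1 and 923.2 FPKM, and member 3 was next with 71.6, 394.0 and 270.9 FPKM. In Pollen the means of members 1 and 2 differed by less than the spread between the libraries of member 2, so that group does not order them. The members' medians, taken in each group separately, were 4.38 FPKM in Honey, 18.1 in Pollen and 28.1 in Brood. Member 33, lowest by its mean over Pollen and Brood, had 1.38 FPKM in Honey, 4.30 in Pollen and 4.55 in Brood.

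Model length, which the rule did not use, differed from that of the eligible models. The median listed length was 1125 bases in the members and 2124 in the eligible models. There were 14 members under 1000 bases (40.0%, beside 18.3% of the eligible models) and 4 over 2000 bases (11.4%, beside 52.8%). The 61 models that rose as much over Honey without being level also had a short median length, 1398 bases. Length moves with the measured changes. Across the eligible models Spearman's correlation of length was -0.34 with the Pollen to Honey ratio and -0.63 with the Brood to Pollen ratio, both computed on the same libraries. When each library's trend with length was removed before the rule was applied, 30 models met it, with a median length of 1968.5 bases, and 12 of them were among the 36. Both the list and its short lengths therefore depend on that trend, and whether the trend is technical was not tested. Within the members, the correlation of length with the Brood to Pollen ratio was -0.33. Brood exceeded Pollen in 12 of the 14 members under 1000 bases and in 13 of the 21 longer ones. This split was not counted among the eligible models, whose correlation was stronger, so it is not read as a trait of the members.

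**Figure D4:**
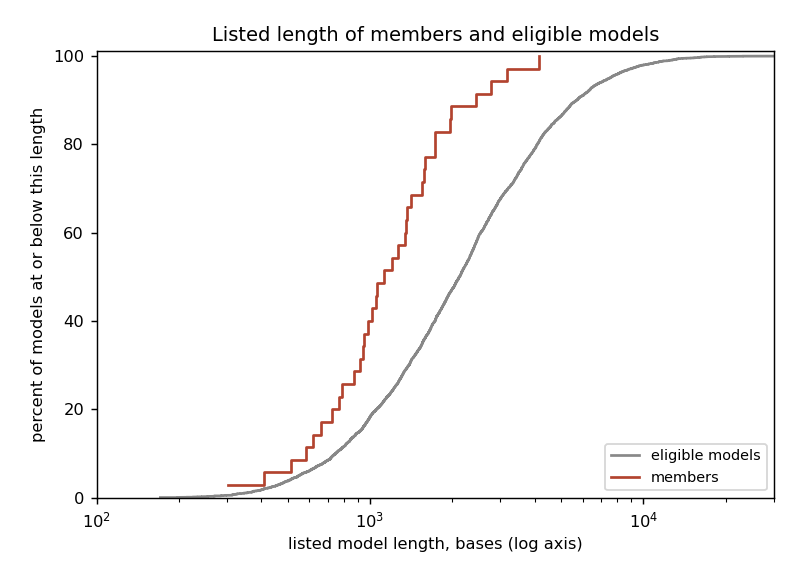
Percent of models (y axis) at or below a listed length in bases (x axis, log scale) for the 35 members (red) and the 5018 eligible models (grey, members included). The members' curve lies to the left, with a median of 1125 bases beside 2124.

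The members' spans were shorter than those of the eligible models, with medians of 3103 and 4508 bases. Relative to the listed lengths, however, the members' spans were wide. The median ratio of genomic span to listed length was 3.00 in the members and 1.94 in the eligible models. It reached 74.6 in member 1, and the span equalled the listed length in 1 member, number 29 on linkage group 15 at 6430236 to 6431360. The plus strand carried 21 members and the minus strand 14 (60% on the plus strand, beside 49.5% of the eligible models). Members were found on all 16 linkage groups, with 4 at most on any and 1 more on an unplaced scaffold, and no member was the next model to another.

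There were 8 members that overlapped another model (23.3% of the eligible models did), 7 of them with a model on the opposite strand. For member 26, on linkage group 8 at 7688780 to 7690544, the overlap is complete, since it lies inside a model of the opposite strand at 7665873 to 7750472. The member had 45 and 36 raw fragments in Pollen, 6 and 11 in Honey, and 36 and 41 in Brood. The enclosing model had 1355 and 1520 in Pollen, 2628 and 2247 in Honey, and 256 and 395 in Brood. These raw counts are not divided by the size factors, of which that of Honey 1 was the largest. The enclosing model's log2 change from Honey to Pollen was -0.09 (adjusted p = 0.910, edgeR). From Honey to Brood it was -1.65 (adjusted p = 0.00178, edgeR). The patterns differ, with the member lowest in Honey and the enclosing model lowest in Brood. Member 16 overlaps a model of the opposite strand for 933 bases, and that model had 154 and 61 raw fragments in Honey, 57 and 77 in Pollen, and 85 and 153 in Brood. Its log2 change was 0.13 for Pollen vs Honey (adjusted p = 0.866, edgeR). It was 1.54 for Brood vs Honey (adjusted p = 0.00160, edgeR) and 1.41 for Brood vs Pollen (adjusted p = 0.00451, edgeR).

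The models next to the members were not chosen by the rule and had their own values. Of 70 such models, 52 passed the filter on low counts. In Pollen vs Honey, 7 of the 52 were called higher by edgeR (13.5%, beside 4.32% of all models tested), and 2 of the 7 overlap their member. None was called lower by edgeR or by DESeq2 (1.84% of all models were by edgeR), although 3 were lower at an unadjusted p under 0.05. The median log2 change was 0.12, beside -0.01. In Brood vs Honey, 20 were called higher and 15 lower (38.5% and 28.8%, beside 28.4% and 28.8% of all models), so neighbours went both ways. In Brood vs Pollen, 14 were called higher and 13 lower (26.9% and 25%, beside 22.4% and 26.0%), close to the background.

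The 7 neighbours that rose include the abundant model beside member 11 and the models overlapping members 3 and 19, described above. The model before member 6, at 569515 to 582835 on linkage group 16, was 2.75 higher on the log2 scale (adjusted p = 0.0229, edgeR), with 60 and 21 raw fragments in Honey and 83 and 233 in Pollen. The model before member 8, at 7708034 to 7719238 on linkage group 14, was 1.42 higher (adjusted p = 0.0142, edgeR). It had 64 and 41 raw fragments in Honey, 76 and 93 in Pollen, and 51 and 53 in Brood. Its log2 change was 1.32 for Brood vs Honey (adjusted p = 0.00315, edgeR) and -0.10 for Brood vs Pollen (adjusted p = 0.780, edgeR). Member 14 lies on linkage group 9 at 10526977 to 10538447, and the model after it, at 10542687 to 10548567, was 1.35 higher (adjusted p = 0.0214, edgeR), and the model before member 29, at 6360070 to 6426988 on linkage group 15, was 1.36 higher (adjusted p = 0.0480, edgeR).

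Libraries of the same group were more than 1.5-fold apart for 10 of the 35 members in Pollen, 10 in Brood and 6 in Honey. Among the eligible models this was so for 25.1% in Pollen, 34.9% in Brood and 21.8% in Honey. The lowest of the 4 pollen-fed libraries was Pollen 2 in 15 members, Brood 2 in 9, Pollen 1 in 6 and Brood 1 in 5. The number of models meeting the rule was 36 with all libraries and 75 without Pollen 2, 64 without Honey 2 and 57 without Honey 1. Without Brood 2 it was 29, of which 21 are among the 36. Leaving out a library makes the lowest and highest values easier to meet, while the group means can move either way.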

How the data were processed

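Each library used 3 ug of total RNA and a NEBNext Ultra kit, according to the labels. The aligner, counting tool and annotation are not given in the sources used here. Per the file headers, the authors gave each model a raw fragment count, a normalized count (used here as a signal, only to rerun the rule), an FPKM value and a length (other), whose unit is taken as bases. The raw counts were whole numbers.

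Scaled fragments are raw counts over median-of-ratios size factors. All 6 libraries entered 1 fit in edgeR 4.0.16 (R 4.3.3) with 3 group means: filterByExpr (minimum count 10), TMM, the quasi-likelihood test, two-sided, and a Benjamini-Hochberg adjusted p under 0.05 over 6943 models. DESeq2 1.42.0 and limma 3.58.1 on log2(FPKM + 1) were alternatives. Counting intervals are exact binomial at 95% and cover counting error only. Members and lists were chosen with earlier results of these data known. The 2 members given by ID had the highest mean in Pollen and Brood and the largest margin over Honey. Others were named as the next by level and by margin, those nearest to a limit, the longest and shortest, and those that overlap other models. Members 14, 24, 25 and 29 and the neighbours described were singled out after their values were seen. Gene lists by name and promoter sequences were not used here, because no ID could be paired with a name.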

Additional observations from a re-analysis of the deposited data

How the results depend on the processing

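The number of models meeting the rule was 36. It was 34 with TMM scaling and 26 with the authors' normalized counts, of which 25 and 19 were among the 36. Library totals gave 8, a limit of 3 times over Honey 13 and of 1.5 times 82, a narrower band of levelness 10 and one of 2-fold 55, and a group mean of 100 gave 20. Leaving out 1 library gave 29 to 75. In Pollen vs Honey, 428 models were called. Library totals gave 2448 (136 higher, 2312 lower), no filter 795, limma on log2(FPKM + 1) 154, with a pseudocount of 0.1 97 and without a filter 52, and leaving out a library 134 to 549. Of the 35 members, 16 were called with library totals, 18, 17 and 7 in those limma fits, and 14 to 35 with a library left out. In Brood vs Honey the 3969 calls became 2625 with the length trend removed and 3031 to 4029 with a library left out. There, 17 members were called with library totals (305 models higher, 3707 lower), and 34 to 35 with a library left out. In Brood vs Pollen the 3359 calls became 1950 with the length trend removed and 2306 to 3146 with a library left out, and library totals gave 553 higher and 2253 lower. The 0 members called became 1 with library totals (lower), 1 with the length trend removed (higher), 1 in each limma fit (higher), and 0 to 5 with a library left out, 5 being without Brood 2. The cause of these changes was not tested. No value changed sign with a call. Over single members and alternatives, 145 of the values for Pollen vs Honey lost the threshold and 380 kept it. For Brood vs Honey, 22 lost it and 503 kept it. For Brood vs Pollen, 58 values changed sign without a call, while 456 kept their sign and stayed without one.

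With the replicate number as a block, 435, 3901 and 3313 models were called in Pollen vs Honey, Brood vs Honey and Brood vs Pollen, and 35, 35 and 0 of the members. Same-numbered libraries had deviations from their group means that correlated at -0.0938 (Pollen and Honey), 0.152 (Pollen and Brood) and 0.0403 (Honey and Brood), so the numbers were not taken to pair the libraries. Depth limits the members with few fragments most, as 18 of them had under 30 in a Honey library.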

Other observations

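The limit of 10000 raw fragments kept abundant models out of the rule. Of 58 models that reached it, 1 met the other values of the rule. It lies on linkage group 11 at 2586955 to 2590494, with a listed length of 1798 bases. Its raw counts were 9271 and 3163 in Honey 1 and 2, 108121 and 189922 in Pollen 1 and 2, and 88124 and 159508 in Brood 1 and 2. In scaled fragments the means were 3733 for Honey, 151500 for Pollen and 170200 for Brood, so its Pollen and Brood libraries overlap. Of the 360 models added by the authors, 0 met the values of the rule.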
